A study of Mus musculus with 38 samples.

Results

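The 89 cells described here were single mouse embryonic stem cells taken 24 h after the start of retinoic acid (RA) exposure and profiled by SMART-seq2, a single-cell RNA-seq protocol that reads along the whole transcript. They were all cells of the 24 h SMART-seq2 library and made up 89 of the 339 SMART-seq2 cells of the series, so no measured value was used to choose them. The cells were of the E14 line, a feeder-free mouse embryonic stem cell line. Before exposure they were kept for at least 2 passages in 2i/L medium, which holds 1 µM of the MEK inhibitor PD0325901, 3 µM of the GSK3 inhibitor CHIR99021 and 1000 U/ml of the cytokine LIF. They were then moved to N2B27 basal medium, without either inhibitor or LIF, with 0.25 µM all-trans RA. The removal of 2i/L and the addition of RA therefore coincided and cannot be told apart. The other SMART-seq2 libraries were 82 cells in 2i/L (0 h), 86 cells at 12 h and 82 cells at 48 h of RA. Each time point was 1 culture and 1 library, cells of a library are not replicates, and no test between time points was possible.

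Naive pluripotency is the state of the pre-implantation epiblast, held by transcription factors such as Nanog, Esrrb, Klf4 and Tfcp2l1 around the core factors Pou5f1 (Oct4) and Sox2. MEK and GSK3 inhibition together with LIF keep cultured stem cells in it. RA binds nuclear RA receptors that sit as heterodimers with RXR on repeated half-sites in DNA. Well-known early targets are Cyp26a1, which encodes an RA-degrading enzyme, Rarb, which encodes a receptor, and the 3′ genes of the Hox clusters. In embryonic stem cells RA leads to loss of pluripotency and to neuroectodermal and extraembryonic endoderm (XEN) fates.

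Expression was measured in RPKM (reads scaled to transcript length and to mapped reads), and each cell was scaled to the same total, as in the study. Below, a gene is called expressed in a cell over 5 normalized RPKM, and the share of cells is given with its exact 95% binomial interval where the statement rests on it. These intervals cover counting error only. A cell in which a gene is listed at 0 may still hold its transcript, because single-cell libraries miss a part of the mRNA and a read-based estimate can fail. The read depth of each cell was not in the files. The number of genes over 1 normalized RPKM, used here in its place, ran from 3729 to 8868 with a median of 7561 at 24 h, against medians of 7265 at 0 h, 7390 at 12 h and 7431 at 48 h. None of the cells held the same values as another.

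A group of 4 cells stood apart, with 3729, 4387, 4829 and 4875 detected genes, and the next lowest cell had 6122. Their signal for Rn45s, the ribosomal RNA precursor, was 26434, 20251, 28111 and 9546 normalized RPKM, and in the other 85 cells it lay between 6812 and 15575. The second of them had the nuclear RNA Malat1 at 3675, where the 85 cells reached at most 469, and listed Pou5f1 at 0. At 0, 12 and 48 h the number of cells under 5000 genes was 0, 5 and 8. Results that rest on these cells are given with and without them.

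The 3 stem cell markers fixed for these cells were high in nearly all of them. Zfp42 (Rex1), a zinc finger gene used as the standard marker of the naive state, ranged from 14.9 to 1918 normalized RPKM with a median of 474 and was over 5 in 89 of 89 cells (interval 95.9 to 100%). Pou5f1, the core pluripotency factor, ranged from 0 to 537 with a median of 192 and was over 5 in 88 cells. Klf4, a naive factor downstream of LIF, ranged from 0 to 256 with a median of 34.4 and was over 5 in 68 cells (76.4%, interval 66.2 to 84.8%). Every cell thus held at least 1 stem cell marker while Klf4 already split the population. Markers of other cell types were low in contrast: of 6 fibroblast genes, Col1a1 was over 5 in 4 cells, Dcn and Thy1 in 1 cell each, and Col1a2, Col3a1 and Postn in 0 cells. Of 10 housekeeping genes 9 were over 5 in 87.6 to 100% of the cells. Hprt, a purine salvage enzyme, was the exception with 6 cells (6.74%), and its share at the other times was 3.66 to 8.54%.

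**Figure D1:**
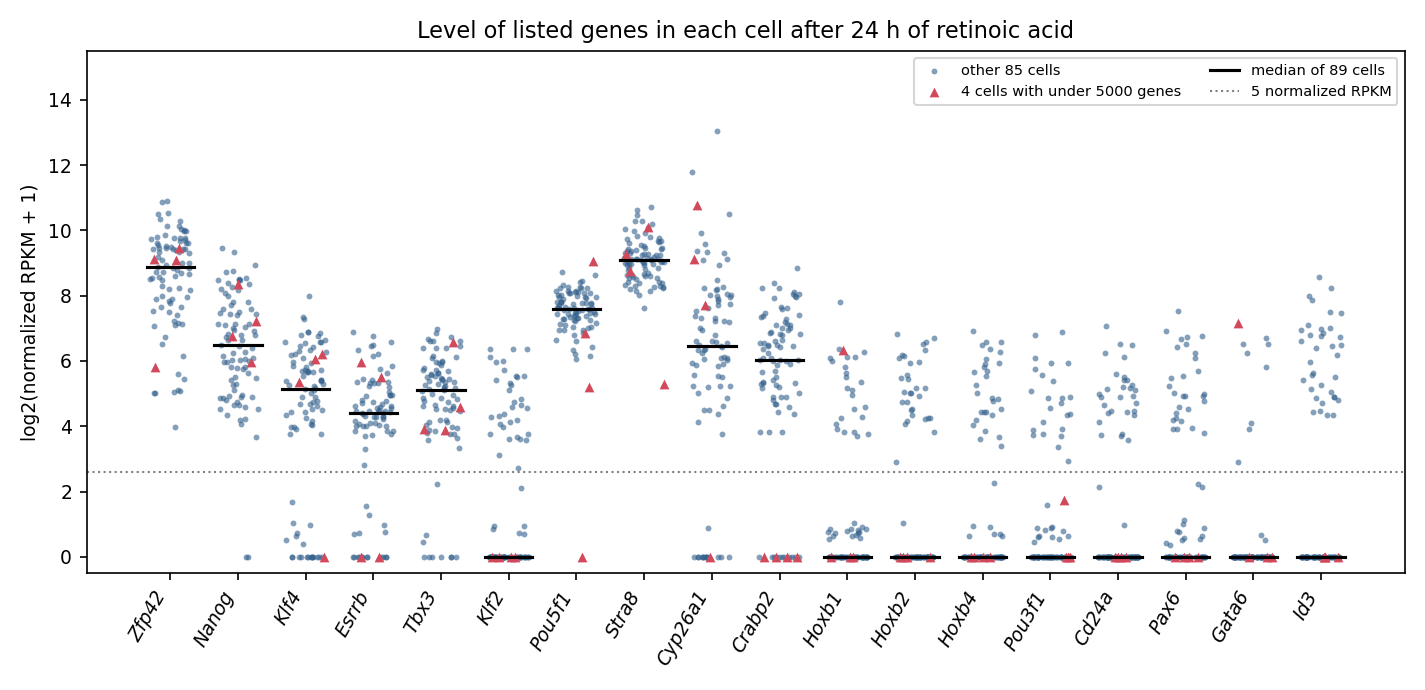
Level of 18 genes in each of the 89 cells at 24 h, on the vertical axis as log2(normalized RPKM + 1); dots are 85 cells, red triangles the 4 cells with under 5000 detected genes, bars the median of all 89 cells, and the dotted line marks 5 normalized RPKM. Zfp42, Nanog and Stra8 lie above the line in nearly all cells, whereas Klf2, Hoxb1, Hoxb2, Pax6 and Id3 split into cells near 0 and cells above the line.

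The naive genes differed widely in how many cells still carried them. Of 15 naive genes, 5 were over 5 in at least 90% of the cells, 3 in 80 to 90%, 6 in 20 to 80% and 1 in under 20%. The median share over the 15 genes was 98.8% at 0 h, 95.3% at 12 h, 85.4% at 24 h and 20.7% at 48 h. Single 24 h cells carried between 6 and 15 of them, with a median of 11. The population at 24 h therefore held most naive genes in most cells, and few cells held all of them.

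Among the genes present in nearly every cell was Dppa5a, an RNA-binding protein gene of pluripotent cells, at 385 to 4065 normalized RPKM with a median of 2311. Nanog, the homeodomain factor of the naive network, had a median of 88 and a highest value of 709 and was over 5 in 87 cells (97.8%, interval 92.1 to 99.7%). Its mean was 267 at 0 h, 152 at 12 h, 142 at 24 h and 34.8 at 48 h. Klf5, a Krüppel-like factor that supports self-renewal, was over 5 in 81 cells, and Tbx3, a T-box repressor, was over 5 in 79 cells with a median of 33.7. All 4 genes were thus kept in at least 79 of the 89 cells.

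Other naive genes were missing from a large fraction of cells. Esrrb, an orphan nuclear receptor that supports Nanog, ranged from 0 to 116 with a median of 20.1 and was over 5 in 69 cells (77.5%, interval 67.4 to 85.7%), against 100%, 98.8% and 11% at 0, 12 and 48 h. Klf2, a Krüppel-like factor of the naive network, was over 5 in 34 cells (38.2%, interval 28.1 to 49.1%), with a highest value of 82.3, and in 93.9%, 53.5% and 20.7% at the other times. Fgf4, the ligand that drives exit from the naive state, was over 5 in 54 cells (60.7%) and had been in 87.8% at 0 h and 93% at 12 h. Tcl1, an Akt coactivator, was over 5 in 59 cells (66.3%) and in 97.6% at 0 h. Prdm14, which keeps the naive state and represses Fgf signalling, was over 5 in 18 cells (20.2%, interval 12.4 to 30.1%) and in 62.2% at 0 h. Dppa3 (Stella), a germline and preimplantation gene, was over 5 in 10 cells (11.2%) and in 51.2% at 0 h. The loss of naive genes at 24 h was thus uneven among genes, from Dppa3 in 10 cells to Zfp42 and Dppa5a in all 89.

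Population means were compared next. With 1 library per time, a gene is called here when its mean over cells differed at least 2-fold and reached 5 normalized RPKM at either time. From 0 h to 24 h, 0 of 15 naive genes were called higher and 6 lower (Klf2, Tfcp2l1, Dppa3, Prdm14, Tcl1 and Tdh), with a median log2 change of -0.74. Over all 11547 genes 10.9% were called higher and 4.69% lower, with a median log2 change of 0.17. Without scaling the cells to 1 total, 886 genes instead of 1253 were called higher and 745 instead of 542 lower, and the median over all genes was -0.04. The naive list then had 0 genes higher and 7 lower with a median of -0.95. Tdh, the threonine dehydrogenase on which mouse stem cells depend, had means of 642, 230, 78.6 and 8.97 at the successive times, 8.17-fold lower at 24 h than at 0 h. Zfp42 had means of 600, 592, 545 and 56.1, so that its population mean differed 1.1-fold between 0 h and 24 h. From 24 h to 48 h 13 of 15 naive genes were called lower and 1 higher, against 8.8% and 10.7% of all 12180 genes.

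Core and general pluripotency genes were close to uniform. Of 10 genes, 8 were over 5 in at least 90% of the cells, and the median share was 97% at 0 h, 100% at 12 h, 98.9% at 24 h and 74.4% at 48 h. Utf1, a chromatin factor of pluripotent cells, ranged from 0 to 610 with a median of 270, and its mean was 4.79-fold higher at 24 h than at 0 h. Dppa2, a chromatin factor of pluripotent and early embryonic cells, had a mean 3.28-fold higher at 24 h. Its values reached 4984 in a cell discussed with the 2-cell genes below. Sox2, the partner of Pou5f1, was over 5 in 74 cells. Tdgf1 (Cripto), the Nodal coreceptor, had means of 268, 364, 387 and 20.3. From 0 h to 24 h 2 of 10 core genes were called higher and 0 lower, against 10.9% and 4.69% of all genes. From 24 h to 48 h 0 of 10 were called higher and 4 lower, against 10.7% and 8.8% of all genes.

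**Figure D2:**
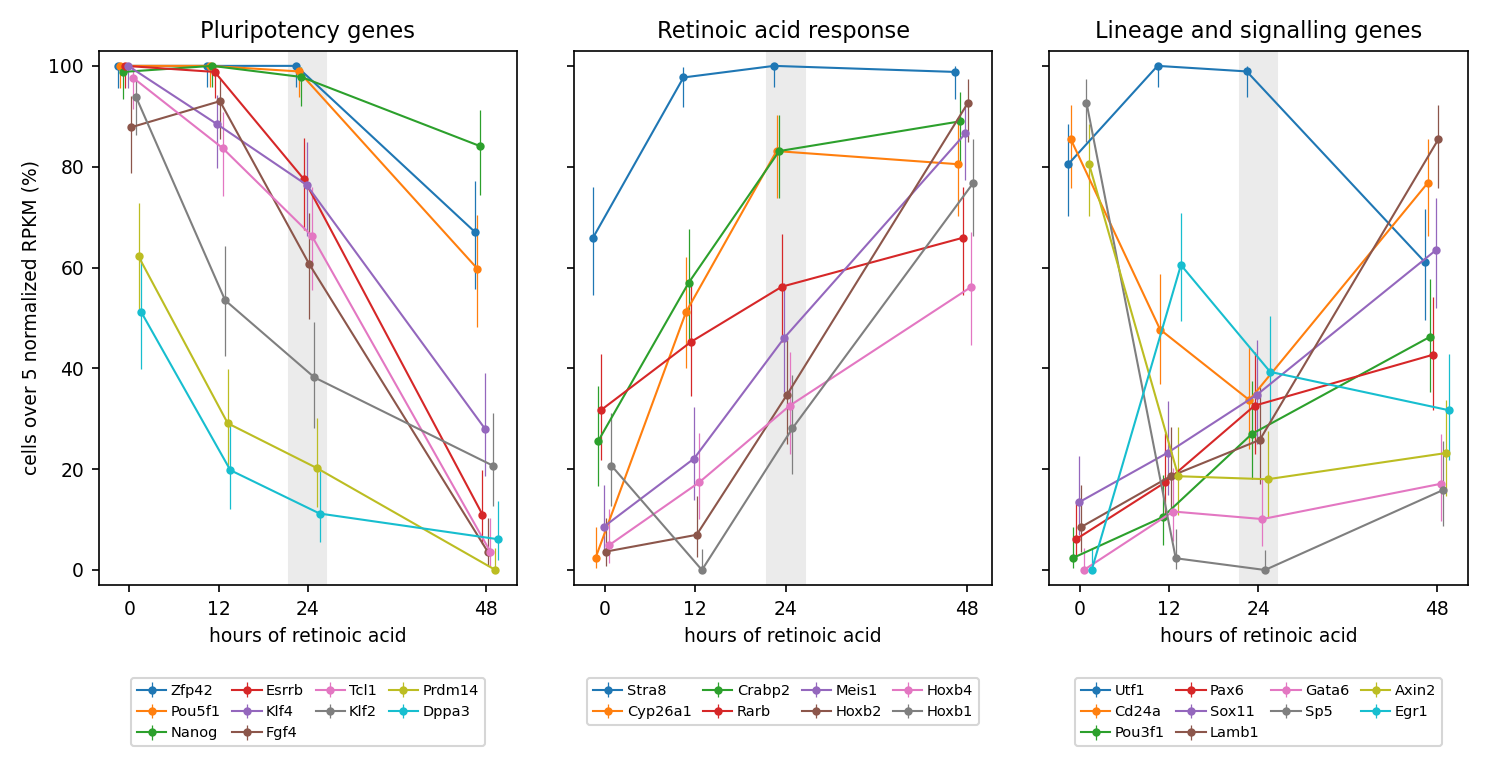
Share of SMART-seq2 cells over 5 normalized RPKM (%, vertical axis) at 0, 12, 24 and 48 h of RA (horizontal axis), with exact 95% binomial intervals as bars and the 24 h cells on a grey band; points are offset slightly along the time axis. Zfp42 stays at 100% through 24 h while Klf2 is at 38.2%, and Hoxb2 goes from 3.66% at 0 h to 34.8% at 24 h and 92.7% at 48 h.

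RA-responsive genes were on in unequal fractions of the cells, with some present in nearly all cells and most in a fraction. Of 23 genes, 2 were over 5 in at least 90% of the cells, 4 in 80 to 90%, 13 in 20 to 80% and 4 in under 20%. The median share was 20.7%, 30.2%, 56.2% and 76.8% at the successive times, and a 24 h cell carried 4 to 19 of the genes with a median of 12. From 0 h to 24 h 15 of the 20 genes that reached the minimum mean were called higher and 2 lower, with a median log2 change of 1.78, against the 10.9% higher and 4.69% lower of all genes. The counts were the same without the low-gene cells and without scaling. The 2 lower genes were Cdx1 and Nr2f2. Cdx1, a caudal gene that also answers to Wnt, was over 5 in 97.6% of the cells at 0 h and in 39 cells (43.8%) at 24 h. From 12 h to 24 h 9 of 19 genes were called higher and 0 lower, against 4.73% and 2.92% of all 11589 genes. From 24 h to 48 h 11 of 21 were called higher and 0 lower, against 10.7% and 8.8% of all genes.

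The RA receptor acts on Cyp26a1 and Rarb through direct repeats of a 6-base half-site in their promoters, and these are shown because the genes turn on in different fractions of the cells. The 250 bases before each annotated start were searched on both strands for the half-site AGGTCA, its variant AGTTCA, the variant GGGTCA or the variant GGTTCA, repeated in the same direction with 2 or 5 bases between. Such a repeat was found for 86 of 32851 promoter entries (0.262%). Of 23 RA-responsive genes 16 had an entry and 2 of them held a repeat. The 100 bases before the start are printed 5′ to 3′ on the strand of the gene, from the RefSeq promoter table of build GRCm38.p6, with the repeat and its spacer in capitals.
Cyp26a1, chr19:37697708-37697807, plus strand: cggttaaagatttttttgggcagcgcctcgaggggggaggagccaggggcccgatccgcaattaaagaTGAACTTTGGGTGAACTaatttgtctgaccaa
Rarb, chr14:16575477-16575576, minus strand: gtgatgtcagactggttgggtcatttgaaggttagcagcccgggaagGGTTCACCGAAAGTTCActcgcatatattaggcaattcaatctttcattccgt
Both repeats had a spacer of 5 bases. That of Cyp26a1 read on the opposite strand and lay 32 to 16 bases before the start, and that of Rarb lay 53 to 37 bases before it. A match of letters is a description of the sequence and not evidence of a bound receptor.

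The genes of RA turnover and transport were broadly on. Stra8, named for its stimulation by RA and required for entry into meiosis, was over 5 in all 89 cells at 38.3 to 1688 normalized RPKM, with a median of 547 and a mean 13.5-fold higher than at 0 h. Cyp26a1, whose promoter is printed above, was over 5 in 74 cells (83.1%, interval 73.7 to 90.2%). Its values ran from 0 to 8350 with a median of 87, and the next highest cell had 3557. Its mean was 0.329 at 0 h, 38.9 at 12 h, 320 at 24 h and 471 at 48 h, and the 24 h mean was 229 without its highest cell. Cyp26a1 was therefore the gene with the widest range among the RA-responsive genes, and a single cell supplied a visible part of its mean. Crabp2, which carries RA to its receptor, was over 5 in 74 cells with a median of 64.4 and a mean 8.65-fold higher than at 0 h. Dhrs3, a retinaldehyde reductase, was over 5 in 79 cells with a median of 140. Stra6, the cellular retinol transporter, was over 5 in 68 cells, against 12.2% of the cells at 0 h. Rarb was over 5 in 50 cells (56.2%, interval 45.3 to 66.7%), with a median of 14.4. Cyp26b1 and Cyp26c1, further RA hydroxylases, were over 5 in 8 cells and in 21.3% of the cells.

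The Hox genes and their TALE-class cofactors were on in some cells and off in others. Hoxb1 was over 5 in 25 cells (28.1%, interval 19.1 to 38.6%) with a highest value of 224, and in 20.7%, 0% and 76.8% at 0, 12 and 48 h. Hoxb2 was over 5 in 31 cells (34.8%, interval 25 to 45.7%), and in 3.66%, 6.98% and 92.7% at 0, 12 and 48 h. Hoxb4 was over 5 in 29 cells (32.6%, interval 23 to 43.3%) and Hoxa3 in 42 (47.2%). Each of these Hox genes was thus on in a minority of the cells at 24 h. Meis1, a homeodomain cofactor of Hox proteins, was over 5 in 41 cells (46.1%), and Meis2 in 57 (64%). Of these 4 Hox genes, 22 cells carried 0, 31 carried 1, 19 carried 2, 10 carried 3 and 7 carried all 4. Hoxb1 and Hoxb2 lie side by side, and both were over 5 in 16 cells, Hoxb1 alone in 9, Hoxb2 alone in 15 and neither in 49.

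Most lineage markers were on in a minority of the cells. Of the ectoderm list, Mdk, a heparin-binding growth factor, was over 5 in all 89 cells at 49.1 to 1154 with a median of 510. Pax6, the neural and eye field factor, was over 5 in 29 cells (32.6%, interval 23 to 43.3%) with a highest value of 185, and in 6.1% of the cells at 0 h. Sox11, a SoxC factor of neural progenitors, was over 5 in 31 cells, and Sox1, the earliest neural plate marker, in 12. Cd24a, the surface protein with which the study sorted ectoderm-like cells at later times, took a different course: it was over 5 in 85.4% of the cells at 0 h, 47.7% at 12 h, 33.7% (30 cells, interval 24 to 44.5%) at 24 h and 76.8% at 48 h. Its mean was 7.38-fold lower at 24 h than at 0 h. Of 11 ectoderm genes 7 were called higher and 1 lower from 0 h to 24 h, against 10.9% and 4.69% of all genes, with Hoxb2, Meis1 and Crabp1 on the RA list too. Without scaling 5 of 10 were called higher and 1 lower.

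Extraembryonic endoderm markers fell into 2 kinds. Genes of the basement membrane that stem cells also express were common, with Sparc over 5 in 87 cells and Lamc1, a laminin chain, in 83. The 9 genes closer to the lineage itself (Gata4, Gata6, Sox17, Pdgfra, Sox7, Foxa2, Dab2, Col4a1 and Col4a2) were rare. Gata6, the factor that sets primitive endoderm apart from epiblast, was over 5 in 9 cells (10.1%, interval 4.73 to 18.3%), with a highest value of 141, Gata4 in 6 and Sox17 in 3. Of these 9 genes, 57 cells carried 0, 26 carried 1, 4 carried 2 and 2 carried 3. No cell at 24 h therefore carried more than 3 of the 9. From 24 h to 48 h 8 of the 12 XEN genes that reached the minimum mean were called higher and 0 lower, against 10.7% and 8.8% of all genes. Pax6 and Gata6 were both over 5 in 2 cells, Pax6 alone in 27, Gata6 alone in 7 and neither in 53.

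Post-implantation epiblast genes were seen in few cells. The median share over 13 genes was 11.2%, and Fgf5, a standard marker of the primed epiblast, was over 5 in 1 cell (1.12%) at 12.9. Otx2, the factor that drives the step to formative pluripotency, was over 5 in 6 cells. Pou3f1 (Oct6), a POU factor of the epiblast and early neural cells, was the exception among the transcription factors that were rare at 0 h: it was over 5 in 24 cells (27%, interval 18.1 to 37.4%) with a highest value of 117, and in 2.44%, 10.5% and 46.3% at the other times. The de novo DNA methyltransferases Dnmt3a and Dnmt3b were over 5 in 87 and 77 cells. Among mesoderm genes none exceeded 11.2% (Eomes, 10 cells), and T (brachyury) was over 5 in 1 cell, against 32.9% of the cells in 2i/L. Trophoblast genes ranged from Tfap2c, also a germline gene, in 32 cells to Krt7 in 0.

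Targets of the pathways that the 2i/L components act on, and the Nodal and BMP and the p53 lists, were compared with 0 h. Of 6 Wnt targets 5 were called lower from 0 h to 24 h, with a median log2 change of -1.93, against 4.69% of all genes. Sp5, a direct target of beta-catenin, was over 5 in 92.7% of the cells in 2i/L and in 0 of 89 cells at 24 h, which allows a share of up to 4.06% by the exact interval. Axin2, the feedback inhibitor of the pathway, was over 5 in 16 cells against 80.5% at 0 h. Of 9 feedback genes of the ERK pathway 4 were called higher and 0 lower, against 10.9% and 4.69% of all genes. Without scaling 4 were called higher and 1 lower. The list was mixed: the means of Spry2, Etv5 and Phlda1 were 1.7-fold, 1.85-fold and 1.51-fold lower at 24 h than at 0 h. Egr1, an immediate early gene, was over 5 in 0 cells at 0 h, in 60.5% at 12 h and in 35 cells (39.3%) at 24 h. Dusp6, an ERK phosphatase, was over 5 in 73 cells. In the Nodal and BMP list, Nodal was over 5 in 63 cells (70.8%) with a highest value of 409, and Lefty1, its secreted inhibitor, in 19 cells (21.3%) with a highest value of 1844. Id3, a BMP target, was over 5 in 36 cells (40.4%) with a highest value of 382, against 78% at 0 h. Socs3, the LIF feedback gene, was over 5 in 53 cells, against 97.6% in 2i/L. None of the 4 LIF and STAT3 genes was called, against the 10.9% higher and 4.69% lower of all genes. Of 8 p53 targets 0 were called higher and 2 lower, with a median log2 change of 0.01, against 10.9% and 4.69% of all genes. Cdkn1a (p21), among the lower, was over 5 in 65 cells, against 100% at 0 h. The means of Mdm2 and Bbc3 were 1.88-fold and 1.92-fold higher at 24 h than at 0 h.

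Genes on in some cells and off in others were common. A gene is called all-or-none when at least 25% of the cells were over 10 normalized RPKM and at least 25% under 1. At 24 h this held for 4537 genes (19.9%), against 18.8% at 0 h, 20.6% at 12 h and 24.5% at 48 h. These shares are over all 22811 genes, of which 14627 had a mean of at least 1 at 24 h. A gene under that mean cannot meet the rule, so all 4537 were among the 14627 and the share among expressed genes was higher than 19.9%. The list counts that follow are to be read against 4537 of 14627 and not against 19.9%. Of 23 RA-responsive genes 11 were all-or-none, of 15 naive genes 3, of 11 ectoderm genes 7 and of 10 core pluripotency genes 0. Hoxb2, Meis1 and Crabp1 are on both the RA and the ectoderm list. The naive members were Klf2, Fgf4 and Tcl1. Genes of this kind with the largest spread on the log2 scale included small nucleolar RNAs such as Snora65 and Snora70, each over 10 in 25 cells and under 1 in 64.

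Among protein-coding genes, Rhox5, an X-linked homeobox gene, was over 10 in 60 cells and under 1 in 25, with a median of 141 in the cells over 10. Its share over 5 was 32.9%, 61.6%, 68.5% and 57.3% at the successive times. Trh, the thyrotropin-releasing hormone precursor, was over 10 in 59 cells and under 1 in 30, and its share over 5 went from 97.6% at 0 h to 91.9%, 66.3% and 31.7%. Gadd45g, a stress-inducible gene, was over 10 in 47 cells and under 1 in 41. Id3 was over 10 in 36 cells and under 1 in 53, with a median of 77.1 in the cells over 10. Nupr1, a stress-response chromatin protein, was over 10 in 36 cells and under 1 in 52. Between 1 and 10 normalized RPKM lay 4 cells for Rhox5, 1 cell each for Gadd45g and Nupr1, and 0 for Trh and Id3. The rule that chose these genes itself asks for cells on both sides.

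Since a low mean alone lowers the share of cells in which a gene is seen, each share was set beside the moving median of the share over 201 genes of nearest mean, among 14627 genes with a mean of at least 1. Id3 was seen in 40.4% of the cells where the curve stood at 87.6%, Nupr1 in 41.6% against 89.9%, Gadd45g in 52.8% against 93.3%, Trh in 66.3% against 96.6% and Rhox5 in 68.5% against 98.9%. Lefty1 was further below, at 21.3% against 88.8%, with a median of 54.6 in the cells over 5 and a highest value of 1844. Apom, an apolipoprotein, was at 41.6% against 83.1%. A single high cell raises the mean and with it the curve value, as the highest Apom cell, at 1564 against a mean of 35, does. The median of Apom in the cells over 5 was 35.6.

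**Figure D3:**
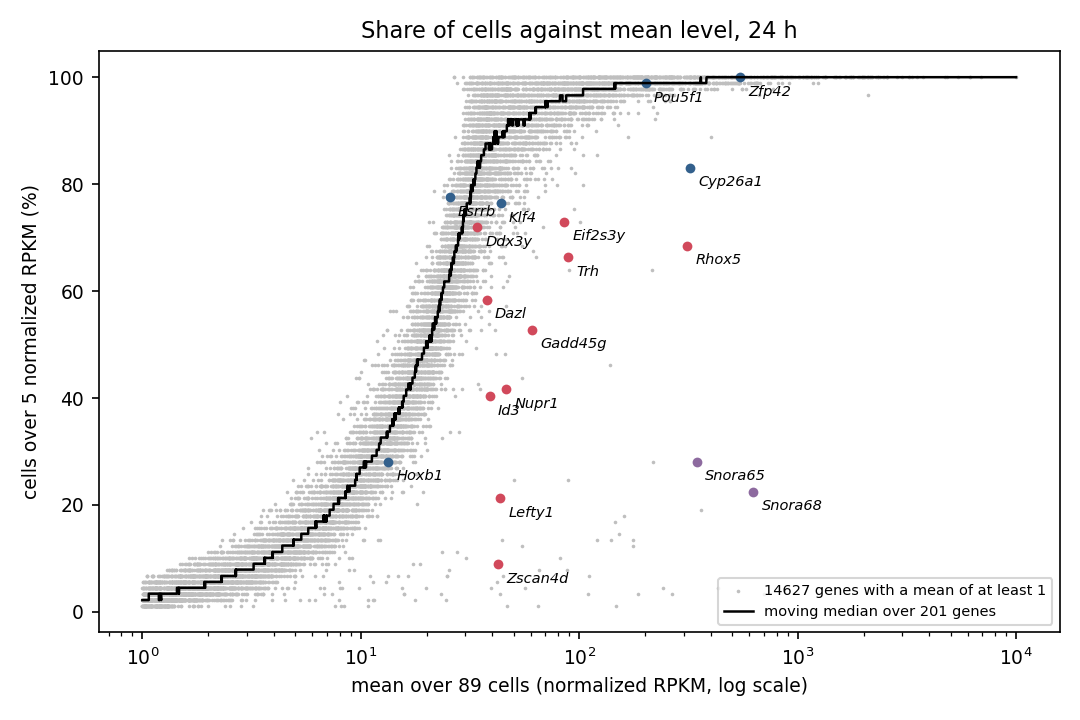
Share of the 89 cells over 5 normalized RPKM (%, vertical axis) against the mean over the cells (normalized RPKM, log horizontal axis) for 14627 genes at 24 h in grey, with the moving median over 201 genes as a black line and selected genes labelled. Id3, Lefty1 and Rhox5 lie far below the line.

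A pair of Y-linked genes was present or absent together in nearly all cells. Ddx3y, an RNA helicase, and Eif2s3y, a translation initiation subunit, were both over 5 in 64 cells, neither in 24 (27%, interval 18.1 to 37.4%), and Eif2s3y alone in 1. Uty, a Y-linked histone demethylase gene, was over 5 in 1 of the 24 cells and in 41 of the other 65, and Uba1y in 1 and 51. Kdm5d was over 5 in 0 of the 24 and 1 of the 65, so that the other Y-linked genes were also off in part of the cells with the pair. The cells without both transcripts did not stand apart in Zfp42, with medians of 470 and 474, nor did they in detected genes, with medians of 7278 and 7593. Cells with neither numbered 14 (17.1%), 29 (33.7%) and 25 (30.5%) at 0, 12 and 48 h. Whether the chromosome was lost or silent in these cells was not tested. By SCRB-seq, a 3′ counting protocol run on other cells of the line at 24 h, 234 of 290 cells had a UMI of neither gene at a median of 3560 UMIs, so that absence could not be told from low depth there.

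Zfp42 varied between cells together with other naive genes and opposite to some RA-responsive genes. Across the 89 cells of this library, log2(normalized RPKM + 1) of Zfp42 had a Pearson r of 0.57 with Esrrb, 0.51 with Nanog and 0.46 with Klf4. It had an r of -0.51 with Hoxb1, -0.40 with Hoxb2 and -0.40 with Pou3f1. The Spearman rho of the same pairs was 0.38, 0.57 and 0.32 for the naive genes and -0.35, -0.34 and -0.37 for the others. On linear values r of Zfp42 was 0.14 with Esrrb, -0.35 with Hoxb1 and -0.22 with Hoxb2. All correlations here describe cells of 1 library, which share depth and handling, and carry no p-value. With 13 of 13 other naive genes seen in enough cells Zfp42 had a positive r (0.16 to 0.57, median 0.30), and with 2 of 19 RA-responsive genes (median -0.14). The median r of Zfp42 was -0.00 with the G2/M genes and -0.03 with the S phase genes. Hoxb1 had a positive r with 0 of 14 naive genes (median -0.20) and with 16 of 18 RA-responsive genes (median 0.11).

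Not every RA or ectoderm gene followed. Zfp42 had an r of -0.38 with Cyp26a1 and -0.29 with Stra8, but 0.08 with Pax6 and 0.01 with Cd24a. The genes of highest r with Zfp42 were Gabarapl2, an autophagy protein (0.59), and Esrrb and Aqp3, a water and glycerol channel (both 0.57), followed by Zfp57, which guards imprinted methylation (0.56). At the other times the pairs differed: r of Zfp42 with Esrrb was 0.11 at 0 h, 0.03 at 12 h and 0.28 at 48 h, and r with Hoxb1 was 0.09, 0.04 and 0.00. With Nanog it was 0.38 at 0 h and 0.54 at 12 h, and 0.09 at 48 h. Some pairs were larger at another time than at 24 h, such as Pou5f1 (0.07 at 24 h, 0.32 at 0 h) and Cd24a (0.01 at 24 h, -0.33 at 48 h), and that with Stra8 was -0.29 at 24 h and 0.33 at 12 h. Differences between time points in these r were not tested.

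Part of this rested on a small group of cells with low Zfp42. Zfp42 was under 100 normalized RPKM in 1, 1, 11 and 69 cells at 0, 12, 24 and 48 h (1.22%, 1.16%, 12.4% and 84.1%). Of the 11 cells at 24 h, 10 were not among the 4 low-gene cells. Their detected genes, 6768 to 8376 with a median of 7550, overlapped those of the 75 cells over 100 (6122 to 8868, median 7663). This cut was chosen after the values were seen, and the values that follow are a description.

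In the low-Zfp42 cells, Esrrb was over 5 in 1 of 10 cells, against 66 of 75 of the others. Klf4 was over 5 in 3 of 10 against 62 of 75, and Fgf4 in 3 against 50. Nanog had a median of 29.1 against 109, Tdgf1 of 160 against 378, and Spp1 (osteopontin) of 131 against 623. In most of these 10 cells Esrrb, Klf4 and Fgf4 were thus under the threshold. Hoxb2 was over 5 in 10 of 10 cells against 21 of 75, Hoxb1 in 7 against 17, Hoxb4 in 7 against 22 and Pou3f1 in 8 against 16. Cyp26a1 was over 5 in 10 of 10 with a median of 232, against 61 of 75 with a median of 74.9. The Hox genes and Pou3f1 were therefore on in most of the cells with low Zfp42, and in a minority of the others.

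The ranges of the genes above overlapped between the 10 and the 75 cells, as Esrrb did with 0 to 116 against 0 to 107. Those of the following genes overlapped too. Pou5f1 ran from 73.2 to 269 with a median of 165 in the 10 cells, against 65.5 to 422 with a median of 197. Klf5 was over 5 in 9 of 10 and 69 of 75, Tbx3 in 7 and 68, and Sox2 in 6 and 66. Dppa5a was 906 to 2894 with a median of 1639, against 385 to 4065 with a median of 2400. The ectoderm markers Pax6 and Cd24a were each over 5 in 3 of the 10 cells, against 26 and 27 of the 75. The cell-cycle genes Ccnb1 (cyclin B1) and Mcm5 (a replicative helicase subunit) had medians of 391 against 486 and 159 against 199.

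Within the 75 cells over 100 the relations were weaker. The r of Zfp42 was 0.28 with Esrrb, 0.45 with Nanog, 0.25 with Klf4, -0.27 with Hoxb1, -0.18 with Hoxb2 and -0.28 with Pou3f1. Zfp57 kept an r of 0.46. The count of the 4 Hox genes over 5 was taken over all 89 cells, so that the cells with low Zfp42 entered it. By this count the median Zfp42 was 704 in the 22 cells with 0 and 627 in the 31 cells with 1. It was 356 with 2, 212 with 3 and 33.6 in the 7 cells with all 4.

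**Figure D4:**
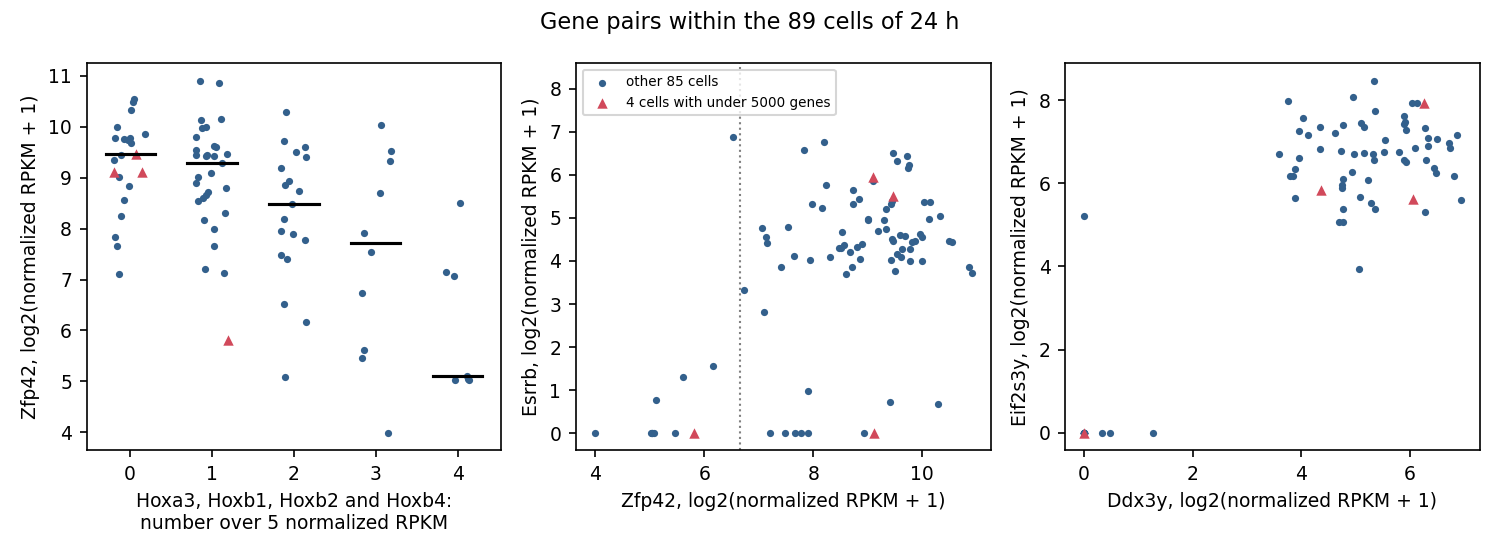
Each point is 1 of the 89 cells at 24 h, on axes of log2(normalized RPKM + 1) except the Hox count; the panels show Zfp42 against the number of Hoxa3, Hoxb1, Hoxb2 and Hoxb4 over 5 normalized RPKM with the median of each count, Esrrb against Zfp42 with the dotted line at a Zfp42 of 100, and Eif2s3y against Ddx3y. Cells with all 4 Hox genes sit at a median Zfp42 of 33.6, and 24 cells lie at the low corner of the Y-linked pair.

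Some of the Hox genes varied together between cells. Hoxb1 had an r of 0.43 with Hoxb4, 0.40 with Hoxb2 and 0.40 with Pou3f1, whereas Hoxb2 and Hoxb4 had an r of 0.23. Hoxa3 stood apart, with r of 0.02 with Hoxb1, 0.12 with Hoxb2, -0.02 with Hoxb4 and 0.02 with Pou3f1 over the 85 cells other than the low-gene cells. Hoxb2 had an r of 0.46 with Pou3f1. Hoxb1 and Esrrb were both over 5 in 13 cells, Esrrb alone in 56, Hoxb1 alone in 12 and neither in 8, so that the naive gene and the Hox gene were not exclusive. Gbx2, a homeobox gene that supports self-renewal and marks the later hindbrain border, was over 5 in 67 cells and had an r of -0.05 with Tbx3. Cyp26a1 had an r of 0.31 with Stra8 and a negative r of -0.42 with Ooep, an oocyte gene of the subcortical complex. Klf2 and Klf4 were both over 5 in 29 cells and had an r of 0.14.

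**Figure D5:**
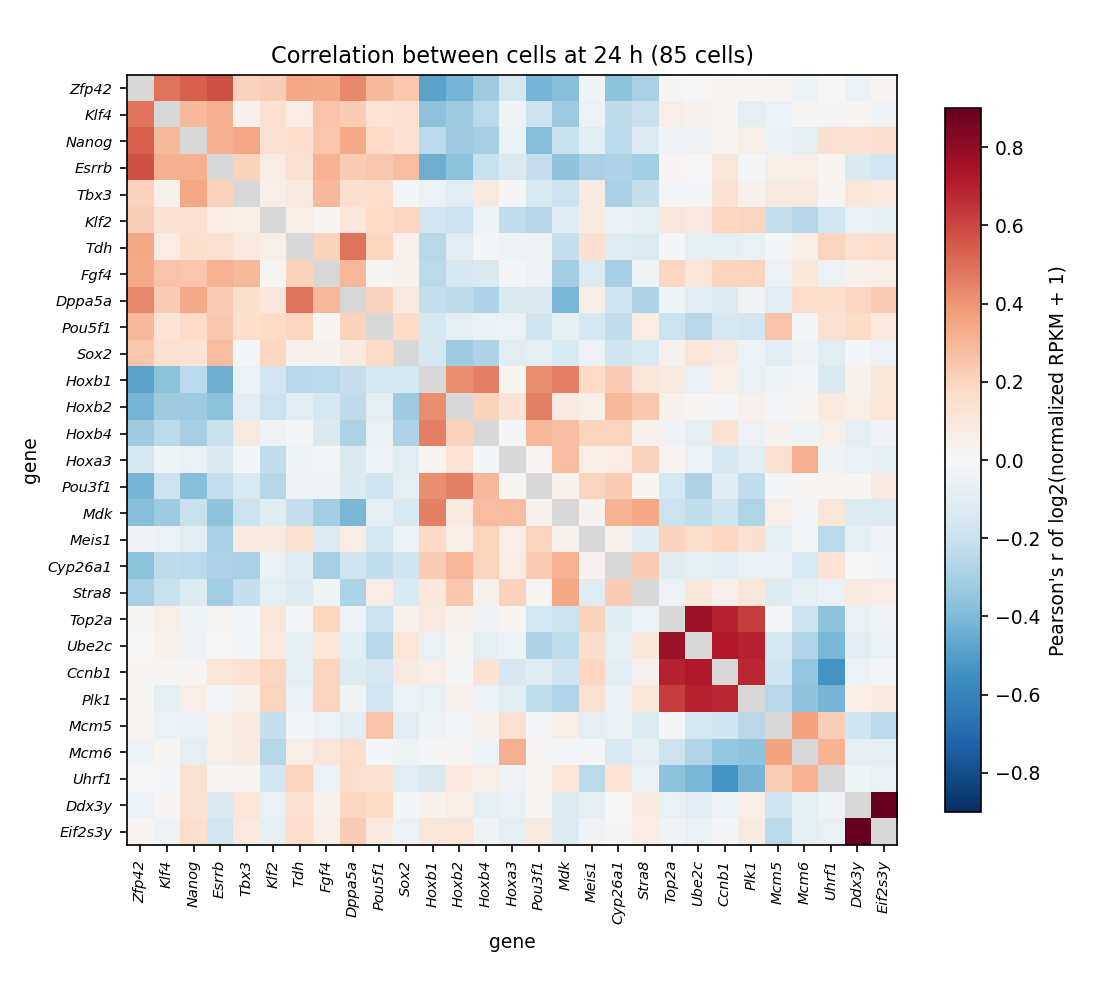
Pearson r between 29 genes over the 85 cells with at least 5000 detected genes at 24 h, from log2(normalized RPKM + 1); the colour scale runs from -0.9 to 0.9 and the diagonal is grey. Blocks of positive r are seen among the naive genes and among the G2/M genes, and Hoxb1, Hoxb2 and Pou3f1 are negative with Zfp42.

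Cell-cycle genes varied together by phase. Of 91 pairs of G2/M genes 89 had a positive r, with a median of 0.35, and of 91 pairs of S phase genes 87 did, with a median of 0.24. Between the phases 41 of 196 pairs were positive and the median was -0.13. Top2a, the topoisomerase of mitotic chromosomes, had an r of 0.76 with the ubiquitin-conjugating enzyme Ube2c and 0.76 with Cdk1. Ccnb1 had an r of -0.50 with Uhrf1, the maintenance methylation factor of S phase. For comparison the median r was 0.16 among naive genes (87 of 91 pairs positive), 0.09 among RA-responsive genes, 0.29 among p53 targets (28 of 28) and -0.05 between naive and RA-responsive genes. The median over all 51181903 pairs of the 10118 genes over 5 in at least 20% of the cells was 0.035. None of the 14 S phase or 14 G2/M genes was called higher or lower from 0 h to 24 h, against 10.9% and 4.69% of all genes.

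Over all pairs, 25628 (0.0501%) had an r of at least 0.6 and 143 (0.000279%) an r of -0.6 or lower. Most of these rested on the 4 low-gene cells: without them 1224 (0.00239%) and 3 (5.86e-06%) pairs were left and the median r was 0.010. At 0 h, where no cell was under 5000 genes, 295 (0.000611%) and 5 (1.04e-05%) pairs passed. With all cells, 30177 (0.0612%) and 851 (0.00173%) passed at 12 h, where 5 cells were under 5000 genes, and 43209 (0.0823%) and 476 (0.000906%) at 48 h, where 8 were. Without those cells 7767 and 39 pairs were left at 12 h and 9253 and 207 at 48 h. Pou5f1 is an example, with an r of 0.78 to Cox6b1, a cytochrome oxidase subunit, and 0.77 to Eno1 (enolase), and of 0.24 and 0.25 without the 4 cells. The 10 lowest pairs all included Rn45s, from Gtf2a2 (-0.83, and -0.38 without the 4 cells) upward. Pairs that did not rest on them were Ddx3y with Eif2s3y (0.91 in both) and Gprc5c, an orphan receptor, with Smco1 (0.95, and 0.94 without), a pair that also had r of 0.86, 0.90 and 0.92 at 0, 12 and 48 h. Without the 4 cells the endoplasmic reticulum chaperones Hsp90b1 and Hspa5 had an r of 0.83, against 0.51 with them. Hspa5 and Manf, a secreted stress protein, had 0.70 against 0.47, the metallothioneins Mt1 and Mt2 0.70 against 0.57, and the sterol synthesis genes Hmgcs1 and Idi1 0.66 against 0.52.

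The main axis of variation changed in the same way. With all 89 cells the first principal component of 505 variable genes held 6.43% of the variance, and a single low-gene cell gave 87.8% of its squared scores. Without the 4 cells the first component of 510 genes held 5.03%, no cell gave more than 9.5% of its squared scores, and its scores had an r of 0.65 with Zfp42, 0.50 with Nanog, 0.40 with Klf4, -0.31 with Hoxb1, -0.33 with Hoxb2 and 0.12 with detected genes. Its end with Zfp42 held Dppa5a, Zfp57, Aqp3, Tdgf1, Tdh and Nanog, and its other end held the amino acid transporter subunit Slc3a2, the chromatin protein Cbx3, the tRNA synthetases Gars and Nars, Nupr1 and the kinase Clk4 among its 15 genes. The second component (4.39%) had Hspa5, Manf, Hsp90b1, Atf4 and Ddit3 among the genes at its end with Zfp42. Plk1, Aurkb, Nusap1, Cks2 and Idi1 were among those at the other end. The scores of this component had an r of 0.39 with Zfp42, 0.31 with Nanog, 0.33 with Klf4, -0.30 with Hoxb1 and -0.42 with Hoxb2. With detected genes their r was -0.50. Each component was signed so that its r with Zfp42 was positive. Zfp42 and Nanog were among the 510 genes, so their r with the components was not independent of them. What drives either axis was not tested.

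Genes of the 2-cell-like state were concentrated in a pair of cells. Of the 12 genes of the 2-cell-like state, which marks a transient cell with transcripts of the 2-cell embryo such as Zscan4, 65 cells carried 0, 15 carried 1, 3 carried 2, 4 carried 3, 1 carried 11 and 1 carried 12. The last 2 cells had Zscan4d at 3074 and 500, Tcstv3 at 1444 and 668 and Dppa2 at 4984 and 2307, and both were low-gene cells. From 0 h to 24 h 10 of the 10 genes that reached the minimum mean were called higher, against 10.9% of all genes. Without the low-gene cells only 1 of the listed genes reached that mean, and it was called lower. Cells with at least 6 of the genes numbered 0, 0, 2 and 15 at 0, 12, 24 and 48 h, and of the 15 at 48 h 3 were under 5000 genes. The second low-gene cell held the highest values of Gprc5c (26790, next 3517) and of the paired-box gene Pax8 (2231, next 161). For RA-linked germline genes, Dazl, an RNA-binding regulator of germ cells, was over 5 in 52 cells and Sycp3, a synaptonemal complex protein, in 43. Mael, a piRNA pathway gene, was over 5 in 28 cells, against 3.66% at 0 h.

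Some of the genes with the largest changes of mean from 0 h also differed in the fraction of cells, and others were seen in a few cells. Csn3, a casein gene, was over 5 in 0 cells at 0 h and 44 at 24 h, with means of 0 and 24.5. Pglyrp1, a peptidoglycan recognition protein, was over 5 in 72 cells at 0 h and 2 at 24 h, with means of 80.8 and 0.26. Trpm1, a cation channel, was over 5 in 71 cells and 1, and Tnni1, a troponin subunit, in 70 and 5. From 12 h to 24 h Ly6a (Sca-1), a surface antigen, went from 63 cells to 23, with means of 95.5 and 18.1. Csn3 ranked 9 among the rises. Most of those above it were entries seen in at most 6 cells, such as Snora20 with a mean of 698 from 3 cells at 24 h, and the largest fall was AF357426, with a mean of 370 from 2 cells at 0 h.

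The same genes were set beside bulk libraries and SCRB-seq of the series, which count 3′ UMIs and were made from other cells. Bulk values are in CPM, counts scaled to the same total, for the 2 libraries in 2i/L and the 1 at 24 h, and in bulk fewer expressing cells and less RNA per cell cannot be told apart. Hoxb2 was at 1.31, 2.61 and 139 CPM, Stra8 at 21, 5.22 and 578, Cyp26a1 at 0.875, 0.871 and 40.8, and Esrrb at 66.1, 80.1 and 17.9. Zfp42 was at 1109, 789 and 494. Nanog went the other way from the SMART-seq2 mean, at 163, 155 and 382 CPM in bulk and at 3.37 and 7.48 per 10000 UMIs in SCRB-seq at 0 h and 24 h, where SMART-seq2 had means of 267 and 142. For SCRB-seq at 24 h, Zfp42 was at 6.49 per 10000 UMIs in the 21 cells with a Hoxb1 UMI and 4.47 in the 269 without, but the former were deeper, with median UMIs of 4246 and 3483. The lower Zfp42 of the Hoxb1 cells in SMART-seq2 (median 185, against 601 in the others) was therefore not seen there, and the values went the opposite way. Each gene looked at in this way had a higher Zfp42 in the cells with its UMI, such as Hoxb2 (5.37 against 4.74) and Top2a (5.09 against 3.69). The reason for this was not tested.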

How the data were processed

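The authors sequenced full-length SMART-seq2 libraries as paired 25-base reads, mapped them to mouse build mm10 with TopHat and deposited RPKM from Cuffquant and Cuffnorm, for cells with at least 200000 reads. Bulk and SCRB-seq libraries were deposited as UMI counts (BWA 0.7.4 in the submitters' processing notes). Of 22815 entries 4 with repeated names were dropped. The 2835 values (0.14%) at 24 h written as text with a comma were read as 0, and cells were scaled to a total of 773326, the median at 0 h. SCRB-seq cells with at least 2000 UMIs were kept, and 2 bulk genes with text values were left out. Values were log2(normalized RPKM + 1) for correlations and components. No doublet caller was run. Python 3.11.15, numpy 2.4.6, pandas 2.3.3, scipy 1.17.1 and matplotlib 3.10.9 were used, and the steps were tested on simulated data.

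Genes were named as list members, or as the 20 all-or-none genes of largest SD. Also named were the 15 highest and 10 lowest pairs (leaving out pairs whose symbols share their letters) and the 5 highest and 5 lowest partners of 10 genes. To these were added the 10 largest rises and falls from 0 h and 12 h with a mean of at least 10. The last were 15 loadings at each end of components 1 and 2. Others, such as the Y-linked genes and the low-Zfp42 comparison, were chosen after their values were seen. Members and lists were chosen with earlier results of these data known. Alternatives covered the scaling, text values, cells used, thresholds, pseudocount, correlation measure and filters. Some list members are not reported by name here.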

Additional observations from a re-analysis of the deposited data

How the results depend on the processing

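With 1 library per time point, no result could be repeated without a replicate. No paired analysis was possible because no result comes from a test and each time point has 1 SMART-seq2 library. Of 83 alternatives to the counts and the first component 57 stayed within 1.5 times the count or 1 percentage point, and 26 moved. Pairs with r of at least 0.6 (25628) numbered 369 without the 10% of cells with fewest genes (80 cells left), 1224 without the 4 cells under 5000 genes, 76611 with a pseudocount of 0.1, 189 by Spearman's rho, 14507 on linear values and 13641 on residuals after a fit on detected genes. Pairs at -0.6 or lower (143) numbered 6, 3, 274, 2, 3 and 29 in that order, and 58 without scaling. The first component held 8.3% with median-ratio scaling and 5.03% without the 4 cells. Genes over 20 in at least 25% of the cells and exactly 0 in at least 25% numbered 2711, against 4537. With a minimum mean of 1, 2876 genes were higher and 1222 lower from 0 h to 24 h, 1719 and 1509 from 12 h, and 2828 and 2068 from 24 h to 48 h. By a difference of mean log2 past 1, 818 were higher from 0 h, 245 higher and 128 lower from 12 h, and 680 higher from 24 h to 48 h. Of 162 alternatives for single genes and pairs 149 kept their value, 13 moved and 0 reversed. On linear values r of Ddx3y and Eif2s3y was 0.46 (0.65 by Spearman's rho). The 5000-gene cutoff, the Zfp42 cut at 100 and the moving median were chosen after seeing the data. Depth per cell was not in the files, which limits what an absent transcript can show.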
